A study of Ambystoma mexicanum with 60 samples.

Results

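Section A is the extreme animal segment of the axolotl (Ambystoma mexicanum) embryo, the first of 5 segments cut from the animal to the vegetal pole. Its RNA was compared between the 1-cell and the 4-cell stage in 6 libraries, 3 per stage, out of 59 libraries with counts in the whole series (60 were labelled). The members were chosen by label alone, as all section A libraries of those 2 stages. Each library came from a different single embryo, so that the 2 stages share no animal. The 1-cell group was labelled as fertilized eggs. No treatment was labelled, and the eggs were laid after natural mating and had their jelly removed by hand. The methods give no age in hours for either group, and they name no strain for the sequenced embryos. The frozen embryos were sliced along the animal-vegetal axis and the slices were shared equally among the 5 tubes. The study used 2 experiments with different parents and did not state which embryo belonged to which, so the stage and the parents cannot be told apart in these libraries. An RNA gained or lost between the stages could not be followed within 1 embryo.

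The animal pole of an amphibian egg holds the nucleus and less yolk than the vegetal pole, and the first cleavage furrows start there. These divisions run on RNA and protein that the mother stored in the oocyte, because the genome of the embryo is largely silent until the mid-blastula transition. Maternal RNAs gain or lose poly(A) tails at this time, and some are held at one pole of the egg. The libraries were made from total RNA depleted of ribosomal RNA and not by poly(A) selection. Each library started from an equal mass of RNA, so a level here is a share of the RNA of the section and not an amount per embryo, and a change in the total RNA of the section cannot be seen.

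The 1-cell libraries held 3269409 to 5783104 counts and the 4-cell libraries held 2822298 to 4324874. Replicate libraries of one stage differed by more than counting noise, with a chi-square of 6.51 to 18.4 per transcript over the 6 same-stage pairs. All levels below are normalized counts, which are the deposited counts divided by a median-of-ratios size factor of the library. The label of section A was set beside 11 measured RNAs of the vegetal tip. Their summed share was 0.0367% to 0.0446% of the counts in section A at the 1-cell stage and 0.0314% to 0.0355% at the 4-cell stage. In section E, the extreme vegetal segment, the same RNAs held 1.82% to 3.49% and 0.536% to 1.24%. The 10 measured RNAs of the animal side held 0.171% to 0.177% in section A at the 1-cell stage and 0.154% to 0.190% at the 4-cell stage. In section E these animal-side RNAs held 0.065% to 0.069% and 0.076% to 0.093%. Both lists were chosen with earlier results of these data known. The shares are therefore a description and no independent check of the label. Of 24 markers of blood, follicle and skin cells, 1 (PTPRC, a leukocyte phosphatase) had a transcript in the table, and the defining globin, collagen and keratin markers had none. PTPRC stood at 55.2, 68.6 and 37.7 in the 1-cell libraries and at 5.12, 2.60 and 0 in the 4-cell libraries. The part of other cells in the results was not tested.

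The first question was which RNAs the animal segment lost or gained between the stages. The fit held the 12 section A libraries of all stages and compared the 4-cell with the 1-cell stage by edgeR's quasi-likelihood test. A call needed an adjusted p under 0.01 and a mean level above 20 in at least 1 of those 2 stages. Among 28909 transcripts, 411 were called higher and 358 lower at the 4-cell stage. These are 1.42% and 1.24% of the transcripts tested, and 2.66% together. The counts depended on the fit, since the 6 compared libraries alone gave 193 higher and 411 lower, and DESeq2 gave 1012 and 1133. In all 769 the libraries of the 2 stages did not overlap, against 25.6% of all transcripts. Of the 769, 197 had 0 counts in all 3 libraries of one stage, 89 among the higher and 108 among the lower. The median change over all transcripts with sufficient level was -0.0276 on the log2 scale. The lower count rested on every library, since it fell to between 117 and 200 when any 1 of the 6 was left out. The higher count also fell without any 1 library, to between 272 and 324, and was lowest without 1-cell replicate 2.

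Counting per gene gave fewer calls but a similar share. When the counts of all transcripts with the same human symbol were summed, 103 of 9194 symbols were higher (1.12%) and 112 were lower (1.22%), and the median change was 0.0025. Together these are 2.34% of the symbols, beside 2.66% of the transcripts. In simulated sums per symbol the test recovered 65% of log2 changes of 1 and 99% of those of 2. In simulated counts per transcript it recovered 7% of log2 changes of 1 and 52% of those of 2. The shares of symbols and of transcripts therefore rest on unequal recovery, and many transcripts with changes of these sizes could go uncalled. The 305 called transcripts without a symbol could not enter the sums. The libraries of the stages did not overlap in any of these 215 genes, against 26.1% of all symbols. The median size of the change was 1.40 on the log2 scale among the higher genes and 2.56 among the lower genes. At least 2-fold changes were seen in 75 of the higher and 92 of the lower genes. The 3 1-cell libraries were at 0 for 6 of the higher genes, and the 3 4-cell libraries were at 0 for 23 of the lower genes. Leaving out 1 library gave 44 to 81 higher and 49 to 90 lower genes, and only the fit without 4-cell replicate 2 stayed within 1.5-fold of both counts.

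**Figure D1:**
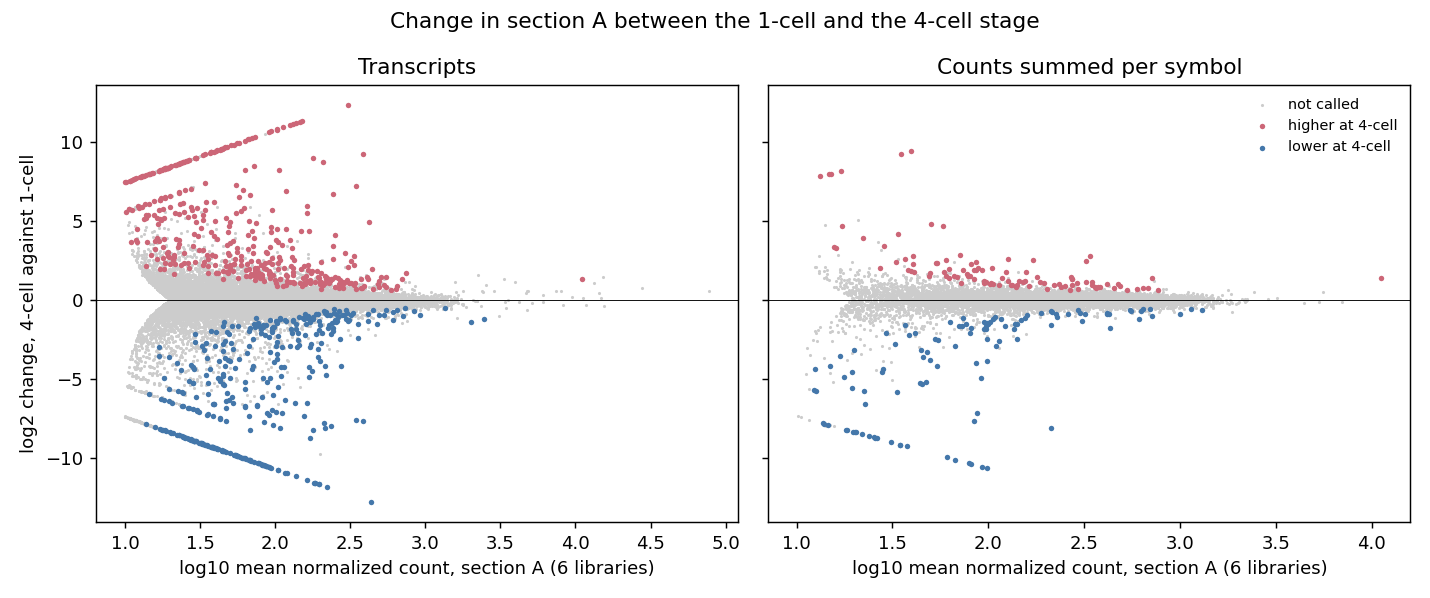
The log2 change between the 1-cell and 4-cell stage in section A (vertical axis) is plotted against the log10 mean normalized count of the 6 libraries (horizontal axis), on the left for transcripts and on the right for counts summed per symbol. Red points were called higher (411 transcripts, 103 symbols), blue points lower (358 transcripts, 112 symbols) and grey points were not called. Most grey points lie near 0, and the clouds of large changes at the top and bottom of the transcript panel are much thinner in the panel of sums.

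Some of the called transcripts belonged to symbols whose transcripts were called in opposite directions. Of the 464 called transcripts with a symbol, 376 belonged to a symbol with more than 1 transcript in the table. For 328 of the 464 called transcripts the sum over the symbol was not called, for 132 it was called in the same direction, and for 4 in the opposite direction. In 64 symbols at least 1 transcript was called higher and at least 1 was called lower. The 137 called transcripts of these 64 symbols had a median size of change of 4.33 on the log2 scale, while their sums had a median of 0.31. The sum stayed within 1.5-fold in 54 of the 64 and was called in 2. The counting tool shares reads among near-identical transcripts of an assembly, and 18.3% of the called transcripts had a paralog listed by the authors, against 13.8% of all transcripts. How the reads were shared out was not tested.

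SELENON, which encodes a selenoprotein of the endoplasmic reticulum, had the largest opposite changes among these symbols, ranked by the smaller change of the pair. Its transcript AMEXTC_0340000017040 stood at 759, 898 and 937 in the 1-cell libraries and at 0 in all 3 4-cell libraries. Its transcript AMEXTC_0340000012806 stood at 0 in all 3 1-cell libraries and at 655, 688 and 481 in the 4-cell libraries. The first was at least 847-fold lower and the second at least 681-fold higher at the 4-cell stage, where the bound sets the stage at 0 to a floor of 3 counts over its 3 libraries. The sum over SELENON was 916 ± 81.7 (SD, n = 3) at the 1-cell stage and 706 ± 138 (n = 3) at the 4-cell stage, and this difference did not pass the test (log2 change -0.38, SE 0.15, edgeR adjusted p = 0.168).

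GOLGA1, a coiled-coil protein of the Golgi, behaved alike, with one transcript at 402, 390 and 387 and then 0 in every 4-cell library. Its other transcript stood at 0 and then at 255, 322 and 250. The GOLGA1 sums were 483, 431 and 456 at the 1-cell stage against 375, 436 and 291 at the 4-cell stage, so that the sums of the 2 stages overlapped. ETV6, an ETS family repressor, had transcripts at 186, 187 and 176 and then 0, and at 0 and then 128, 253 and 187. IKZF4 and DCTN1, the large dynactin subunit, were among the 10 largest rises for one transcript, and another transcript of each was called lower. In EEFSEC, the elongation factor for selenocysteine, one transcript stood at 213, 211 and 204 in the 1-cell libraries and fell to 0. Another EEFSEC transcript rose to 98.8, 108 and 112 in the 4-cell libraries. The EEFSEC sum was therefore lower at the 4-cell stage in all 3 libraries, at 108 ± 6.05 against 207 ± 4.54 (SD, n = 3 each), with an edgeR adjusted p of 0.0240 that missed the threshold.

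In other genes with roles in the egg, opposite changes of this kind were partial. WEE2, the oocyte kinase that restrains Cdk1, had a transcript AMEXTC_0340000080610 at 3.33, 10.3 and 7.57 in the 1-cell libraries and at 334, 282 and 337 in the 4-cell libraries. Its more abundant transcript AMEXTC_0340000250486 went from 950, 1115 and 1075 to 683, 585 and 610. The 2 groups did not overlap for either transcript, and the sum moved by only -0.11 on the log2 scale (SE 0.12, edgeR adjusted p = 0.676). ACO1, the cytosolic aconitase that doubles as an iron-responsive RNA binding protein, had one transcript that rose from 68.8, 40.2 and 99.6 to 246, 312 and 224. Another ACO1 transcript fell from 393, 395 and 337 to 156, 153 and 126, and the sum was 440 ± 17.0 against 415 ± 66.4 (SD, n = 3 each). TENT2, a cytoplasmic poly(A) polymerase that lengthens the tails of maternal RNAs, had a transcript at 0 in all 1-cell libraries and at 187, 246 and 181 in the 4-cell libraries, and another transcript of the symbol was called lower.

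**Figure D2:**
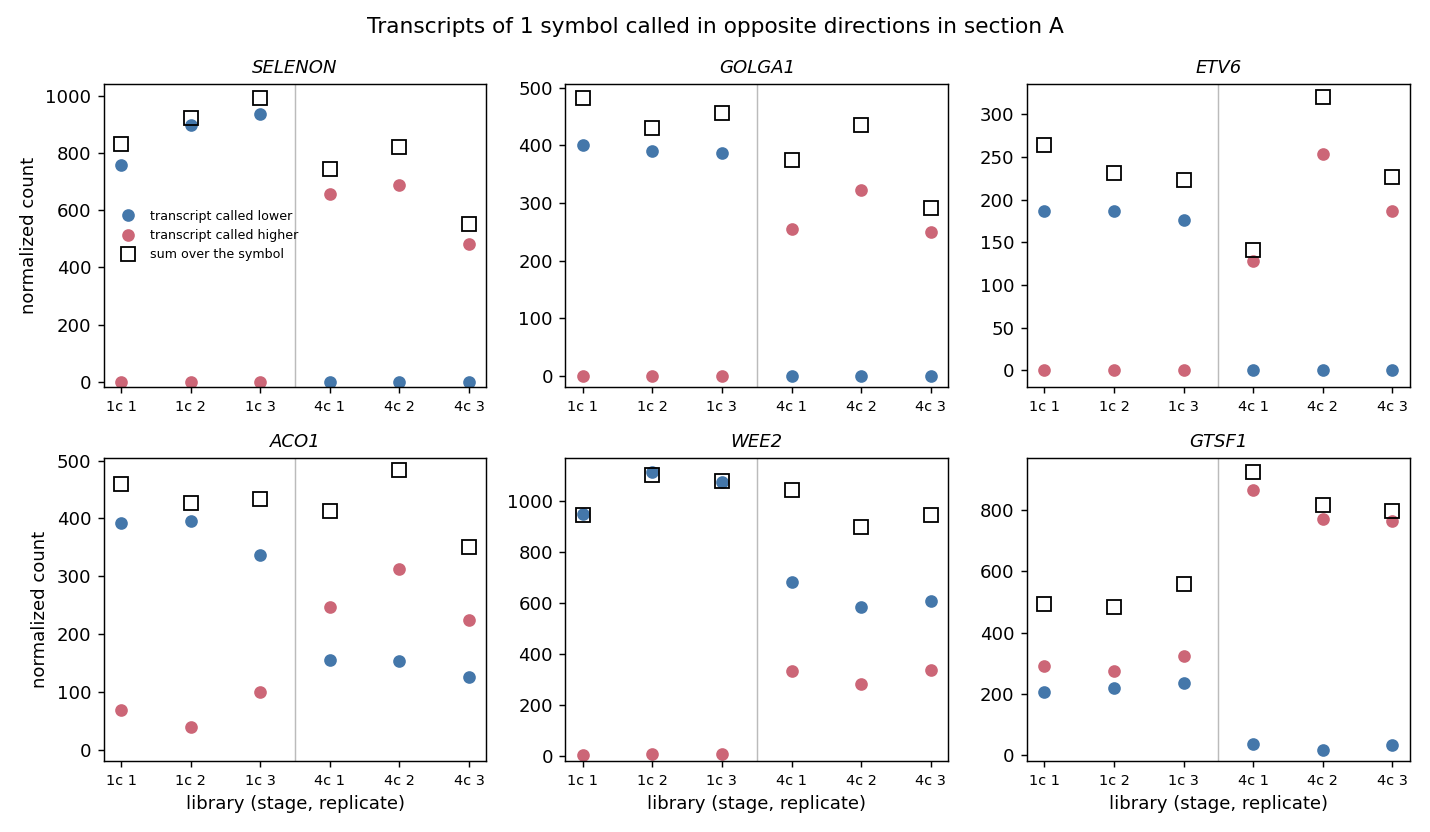
Normalized counts (vertical axis) are plotted for each of the 6 section A libraries (1c, 1-cell; 4c, 4-cell; replicates 1 to 3) for 6 symbols with transcripts called in opposite directions. Blue circles are the transcript called lower, red circles the transcript called higher, and open squares the sum over the symbol, which is normalized by its own size factors and may also hold further transcripts. In SELENON, GOLGA1 and ETV6 the red circles are at 0 in the 1-cell libraries and the blue circles at 0 in the 4-cell libraries, while the squares change little, and in GTSF1 the squares rise.

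Other large rises were of a transcript with no partner called lower. NACC1, a BTB domain transcription regulator, went from 0 in all 3 libraries to 279, 287 and 338, at least 337-fold higher. CAB39, a scaffold of the LKB1 kinase complex, went from 0 to 262, 144 and 215. A transcript of AP3D1, a subunit of an endosomal adaptor, went from 0 to 362, 302 and 95.9, while the AP3D1 sum was called lower. The call of the AP3D1 transcript was lost in the fit of the 6 compared libraries alone (edgeR adjusted p = 0.0121). SELENOH, whose symbol also had a transcript called lower, completes the 10 largest rises, from 0 to 274, 158 and 360. These transcripts were named only if their libraries did not overlap between the stages. That all their 4-cell libraries lay above the 1-cell libraries follows from this choice and adds no evidence for the rises.

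The 10 largest transcript falls were all to 0 in the 3 4-cell libraries. AP2B1, a subunit of the clathrin adaptor at the plasma membrane, fell from 455, 404 and 462. GANAB, the glucosidase II subunit that trims N-glycans, fell from 430, 312 and 369, and MGAT2, a later N-glycan enzyme of the Golgi, fell from 261, 232 and 229. AP2B1, GANAB and MGAT2 were among the 64 symbols with a called partner in the other direction. SRSF4, a splicing factor, GALNT6, which starts O-glycans, and PARP12 fell from ranges of 305 to 432, 252 to 506 and 181 to 416. These 3 had no partner called higher. The calls of IKZF4, MGAT2, PARP12 and GALNT6 were lost in at least 1 fit that left out a single library, with edgeR adjusted p-values of at most 0.0226. With the replicate number as a block, all 10 falls lost the call (edgeR adjusted p of 0.0103 to 0.0321). The 10 largest rises kept theirs in that fit.

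Transcripts without a human symbol made up 191 of the higher and 114 of the lower calls. The largest rises were AMEXTC_0340000050599, from 0 to 214, 214 and 250, and AMEXTC_0340000229333, from 0 to 153, 118 and 173. The largest falls were AMEXTC_0340000039783, from 338, 416 and 418 to 0, and AMEXTC_0340000251697, from 255, 241 and 204 to 0. The study designed quantitative PCR primers for 2 transcripts that carry no human symbol in the table, which it named mok and nynrin-like. It reported both as newly synthesized RNAs and compared the sequencing with quantitative PCR over the stages. The primers are shown because they name the RNA regions in which these transcripts could be followed:

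mok forward: gcacaccaggaatgttacccc

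mok reverse: atccgagctatgccagaccc

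nynrin-like forward: aggggtgtcttgtgtgtgca

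nynrin-like reverse: ttttgtaaaggcgcccggtg

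The mok transcript stood at 0 in all 3 1-cell libraries of section A and at 51.9, 33.8 and 73.9 in the 4-cell libraries, at least 59.6-fold higher (edgeR adjusted p = 1.24e-04). Its mean was 51.8 in the 64-cell libraries and 42.1 in the 1K-cell libraries. The nynrin-like transcript stood at 26.6, 29.9 and 44.8 and then at 4.99, 0 and 2.64, a 13.3-fold lower mean whose edgeR adjusted p of 0.0307 missed the threshold. DESeq2 called this fall. The mean of the nynrin-like transcript at the 1K-cell stage was 556.

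The sums per symbol give the genes whose share changed over the transcripts with that symbol, and signalling and transcription genes were among the rises. Of the called genes, 60 of the 103 higher and 75 of the 112 lower had 1 transcript in the table, so their sum is that transcript. A transcript of the same gene without a symbol could not enter these sums. DUSP1, an immediate early phosphatase that switches off MAP kinases, stood at 30.9, 56.2 and 24.5 in the 1-cell libraries and at 145, 246 and 255 in the 4-cell libraries. Every 4-cell library lay above every 1-cell library, and the mean was 5.79-fold higher (log2 change 2.57, SE 0.29, edgeR adjusted p = 1.62e-04). FOXH1, the partner of Smad proteins in nodal signalling, went from 4.41, 7.87 and 0 to 64.5, 144 and 81.8, a 23.7-fold higher mean (edgeR adjusted p = 2.79e-04). The 1-cell mean of FOXH1 was near 0, and its log2 change of 4.77 ran from 3.94 without 1-cell replicate 3 to 5.76 without 1-cell replicate 2. REST, a repressor of neuronal genes, rose 1.92-fold from 245, 225 and 244 to 478, 398 and 491. The 1-cell libraries of REST varied little and lay well below all 4-cell libraries.

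DDX4 and GTSF1, both germ line genes, also rose in the animal segment. DDX4, the Vasa helicase that marks germ cells, stood at 162, 139 and 139 and then at 381, 336 and 470, a 2.69-fold higher mean (log2 change 1.43, SE 0.18, edgeR adjusted p = 2.96e-04). GTSF1, a cofactor of the piRNA pathway, stood at 494, 485 and 559 and then at 925, 817 and 798. The GTSF1 libraries of the 2 stages were well apart, with a 1.65-fold higher mean and an adjusted p of 0.0021 by the same test. The call of GTSF1 was lost without 1-cell replicate 1 or 2 or 4-cell replicate 1 (adjusted p of at most 0.0195). It was also lost with the replicate number as a block (edgeR adjusted p = 0.01001). The call of DDX4 was kept in every fit run. GTSF1 was also among the symbols with transcripts called in opposite directions. DDX4 and GTSF1 were 2 of the 25 measured germ plasm and germ cell genes, and the other 23 were not called. Of all symbols, 2.34% were called. The median of the list was -0.042, beside 0.0025 over all symbols.

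The remaining called rises from the lists were DCP1B, a decapping cofactor of RNA decay, CASP6, an effector caspase, TMPO of the nuclear lamina, SEC24D of the COPII coat and NDUFS5 of respiratory complex I. Their means rose 2.16-fold, 1.61-fold, 1.64-fold, 2.77-fold and 3.57-fold, with edgeR adjusted p-values of 0.0031 to 0.0096. DCP1B went from 233, 225 and 207 to 517, 393 and 525. NDUFS5 was low throughout, at 26.5, 13.5 and 10.0 and then 53.2, 52.1 and 73.0. Each of these 5 calls was lost in 4 to 6 of the 6 fits that left out a single library. Every library ended at least 2 of them (adjusted p of at most 0.0558). CASP6 and NDUFS5 also lost the call in the fit of the 6 compared libraries alone (edgeR adjusted p of 0.0210 and 0.0169). With the replicate number as a block, all 5 lost it (edgeR adjusted p of 0.0153 to 0.0266).

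Falls among the listed genes were of 2 kinds, near-complete losses and moderate decreases. ACTB, a cytoplasmic actin, stood at 176, 173 and 205 in the 1-cell libraries and at 0 in all 3 4-cell libraries, at least 178-fold lower (edgeR adjusted p = 0.0062). ACTG1, the other cytoplasmic actin, stood at 996, 1095 and 1046 and then at 992, 781 and 1032, and was not called (adjusted p = 0.542). The ACTG1 libraries of the stages overlapped, and how reads were shared between the near-identical actin RNAs was not tested. UBE2G2, a ubiquitin-conjugating enzyme of protein quality control at the endoplasmic reticulum, went from 184, 139 and 166 to 0 in every 4-cell library. EIF6, which keeps ribosomal subunits apart, fell from 34.2, 33.7 and 47.1 to 1.02, 0 and 0.88. BAK1, a pore-forming protein of apoptosis, and USP28, a deubiquitinase, fell to 0 to 0.88 and to 0 to 27.3, from 15.7 to 30.9 and from 151 to 168. ACTB and BAK1 lost the call when any 1 library was left out, and USP28 without any but 4-cell replicate 2 (adjusted p of at most 0.0566). UBE2G2 and EIF6 kept it without any 1 library. With the replicate number as a block, BAK1 and USP28 lost it (edgeR adjusted p of 0.0189 and 0.0225).

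Smaller decreases were called in other listed genes. CCND3, a D-type cyclin, stood at 238, 196 and 210 and then at 100, 98.9 and 87.1, a 2.25-fold lower mean. PCNT, a scaffold of the centrosome, went from 1135, 1309 and 1450 to 826, 692 and 584, and NUMA1, which anchors spindle poles, from 1303, 1355 and 1437 to 1058, 841 and 828. No library overlapped between the stages in any of these 3 genes. YTHDF3, a reader of methylated RNA, TARDBP, an RNA binding protein, HSPA8, the constitutive Hsc70 chaperone, ATP5F1A of the ATP synthase, AP3D1 of an endosomal adaptor and VAMP2, a SNARE, had means 1.56-fold to 1.92-fold lower. The edgeR adjusted p-values of these 9 genes lay between 0.0019 and 0.0099. CCND3 and YTHDF3 lost the call when any 1 library was left out, and HSPA8 without 1-cell replicate 1 or 2. The others lost it without 4 or 5 of the 6 libraries, with adjusted p-values of at most 0.0511. In the fit of the 6 compared libraries alone, NUMA1, YTHDF3, TARDBP and VAMP2 lost the call (edgeR adjusted p of 0.0150 to 0.0225). With the replicate number as a block, PCNT, NUMA1, YTHDF3, TARDBP, AP3D1 and VAMP2 lost it (edgeR adjusted p of 0.0172 to 0.0336).

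**Figure D3:**
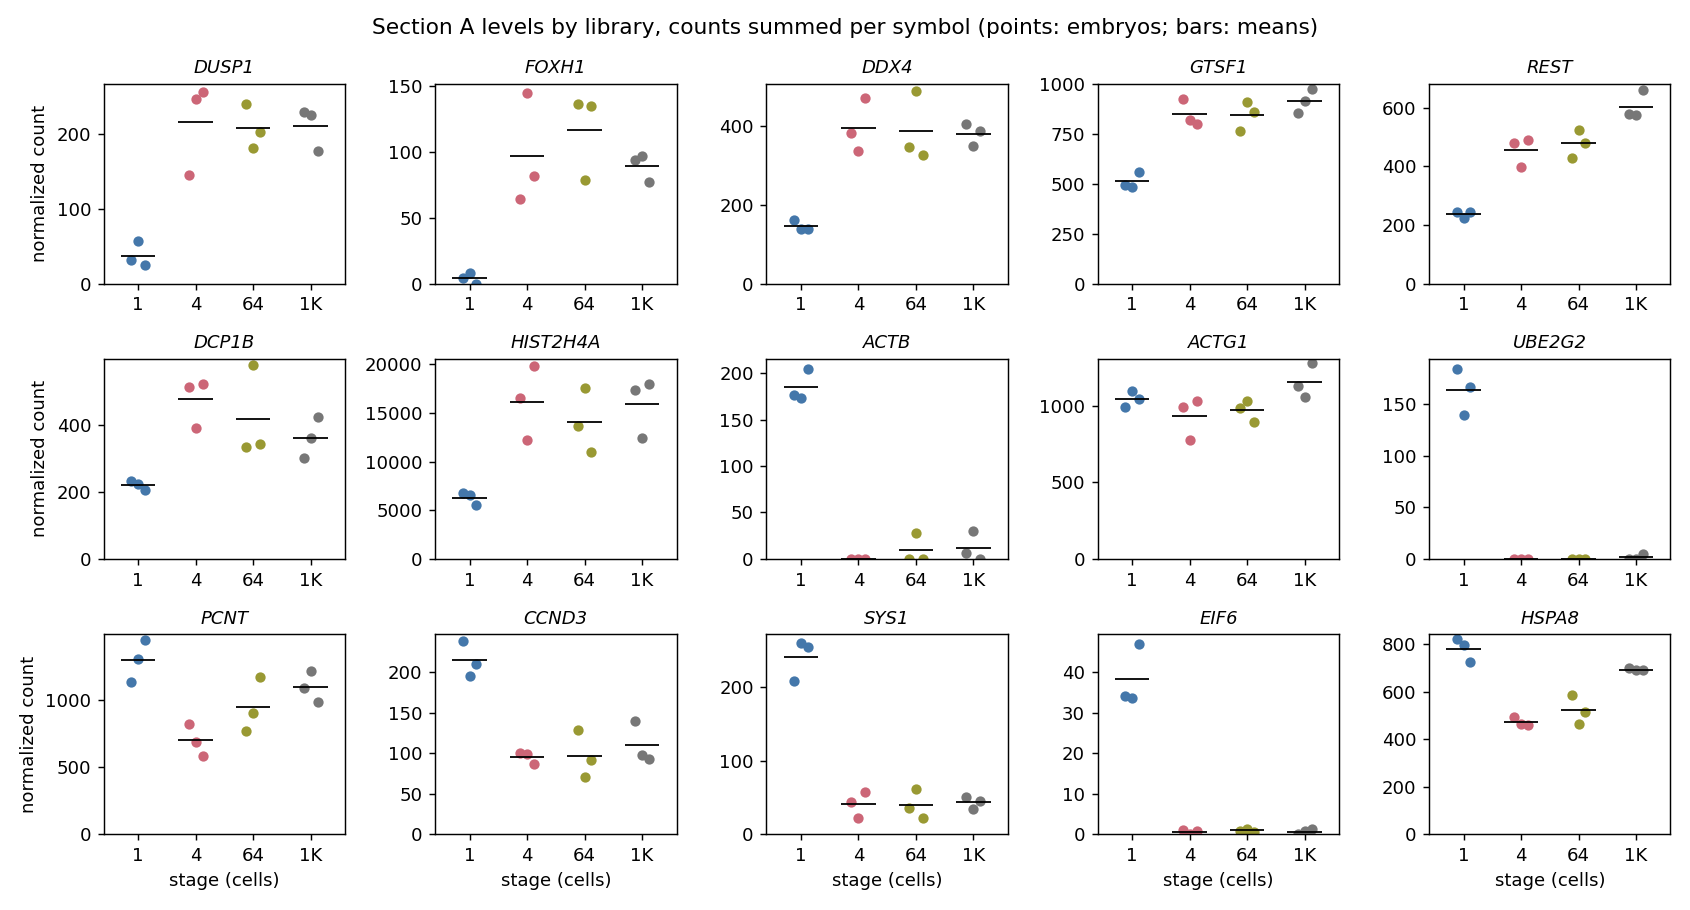
Normalized counts summed per symbol (vertical axes, starting at 0) are plotted for the 12 section A libraries by stage (horizontal axis, 1, 4, 64 and 1K cells) for 15 genes. Points are single embryos and bars are stage means (n = 3). DUSP1, FOXH1, DDX4, GTSF1, REST, DCP1B and HIST2H4A are higher in every 4-cell than in every 1-cell library, ACTG1 overlaps between the stages, and the other 7 are lower.

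Outside the lists, genes with large changes in their sums were picked after their values were seen. HIST2H4A, a histone H4 gene, was the most abundant of them, with 6736, 6587 and 5589 in the 1-cell libraries and 16522, 12184 and 19852 in the 4-cell libraries (2.57-fold, edgeR adjusted p = 7.48e-04). ECM1, a secreted matrix protein, rose 7.00-fold from 17.7, 23.6 and 11.9 to 111, 143 and 119. SLC15A2, a peptide transporter, rose 24.7-fold from 8.82, 2.25 and 2.51 to 59.4, 202 and 73.9. The 4-cell libraries of SLC15A2 were spread widely but all lay above the 1-cell libraries, and the call was lost without 1-cell replicate 2 or 3 (adjusted p of 0.0177 and 0.0196). GATM, the first enzyme of creatine synthesis, rose 2.47-fold with a narrow spread, from 156, 159 and 161 to 400, 367 and 406. MAK, a kinase of male germ cells and photoreceptors, and C1QA, a complement subunit, rose 5.75-fold and 3.90-fold, the first with an adjusted p of 0.0105 without 1-cell replicate 3.

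Among the falls outside the lists, DNAJC30, a mitochondrial J-domain protein, went from 210, 174 and 206 to 0 in all 3 4-cell libraries. CREM, a cAMP-responsive transcription factor, went from 133, 106 and 126 to 0, and CSRP2, a LIM domain protein, from 128, 118 and 154 to 0. HNRNPH2, a splicing regulator, fell from 460, 426 and 379 to 0, 5.21 and 0. NOVA1, another splicing regulator, fell from 178, 192 and 132 to 0, 0 and 1.76. HELQ, a DNA helicase, fell from 186, 148 and 183 to 0, 3.90 and 0, and its fitted log2 change of -7.19 ran from -10.5 to -6.54 over the alternatives, the first without 4-cell replicate 2. TBRG4, which acts on mitochondrial RNA, fell from 183, 182 and 170 to 5.12, 9.11 and 3.52. TNF, a cytokine, stood at 96.0, 126 and 133 and then at 18.4, 9.11 and 18.5.

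Of 1486 genes in 28 lists of pathways and families, 10 were called higher and 15 lower, or 1.68%, against 2.34% of all symbols. The lists are not complete. The called histone gene HIST2H4A, the splicing regulators HNRNPH2 and NOVA1 and the J-domain protein DNAJC30 are in none of them. The counts therefore hold for the listed genes only. By the sums, no list held more than 2 called genes and 9 lists held none. Among the 9 were DNA replication (48 measured), cytosolic ribosomal proteins (73), proteasome (35), Wnt pathway (46) and cell adhesion (53). With the transcript of the highest mean in place of the sum, DNA replication and ribosomal proteins each held 1 call and the Wnt pathway 1 higher and 1 lower. Proteasome and cell adhesion still held 0, and the list of poly(A) tail and maternal translation control held 4 lower. List medians lay between -0.131 for oocyte and egg coat genes and 0.14 for oxidative phosphorylation, and 1439 of the genes changed by less than 2-fold. In the cell cycle list CCND3 was the 1 called gene of 49, and PLK1, a mitotic kinase, had means of 1212 ± 81.9 and 960 ± 52.7 (SD, n = 3 each). CDC25A, the phosphatase that activates Cdk1, had means of 1593 ± 34.9 and 1158 ± 100.2 and an edgeR adjusted p of 0.0192. CPEB1, the cytoplasmic polyadenylation factor, had means of 706 ± 50.0 and 439 ± 39.2 with an adjusted p of 0.0401 by the same test. In the list of MAP kinase and immediate early genes DUSP1 was the only call among 51. FOS had means of 441 ± 79.1 and 327 ± 122 and JUN of 48.7 ± 11.4 and 92.0 ± 23.3. PLK1, CDC25A, CPEB1, FOS and JUN were not called and were picked with their values known.

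**Figure D4:**
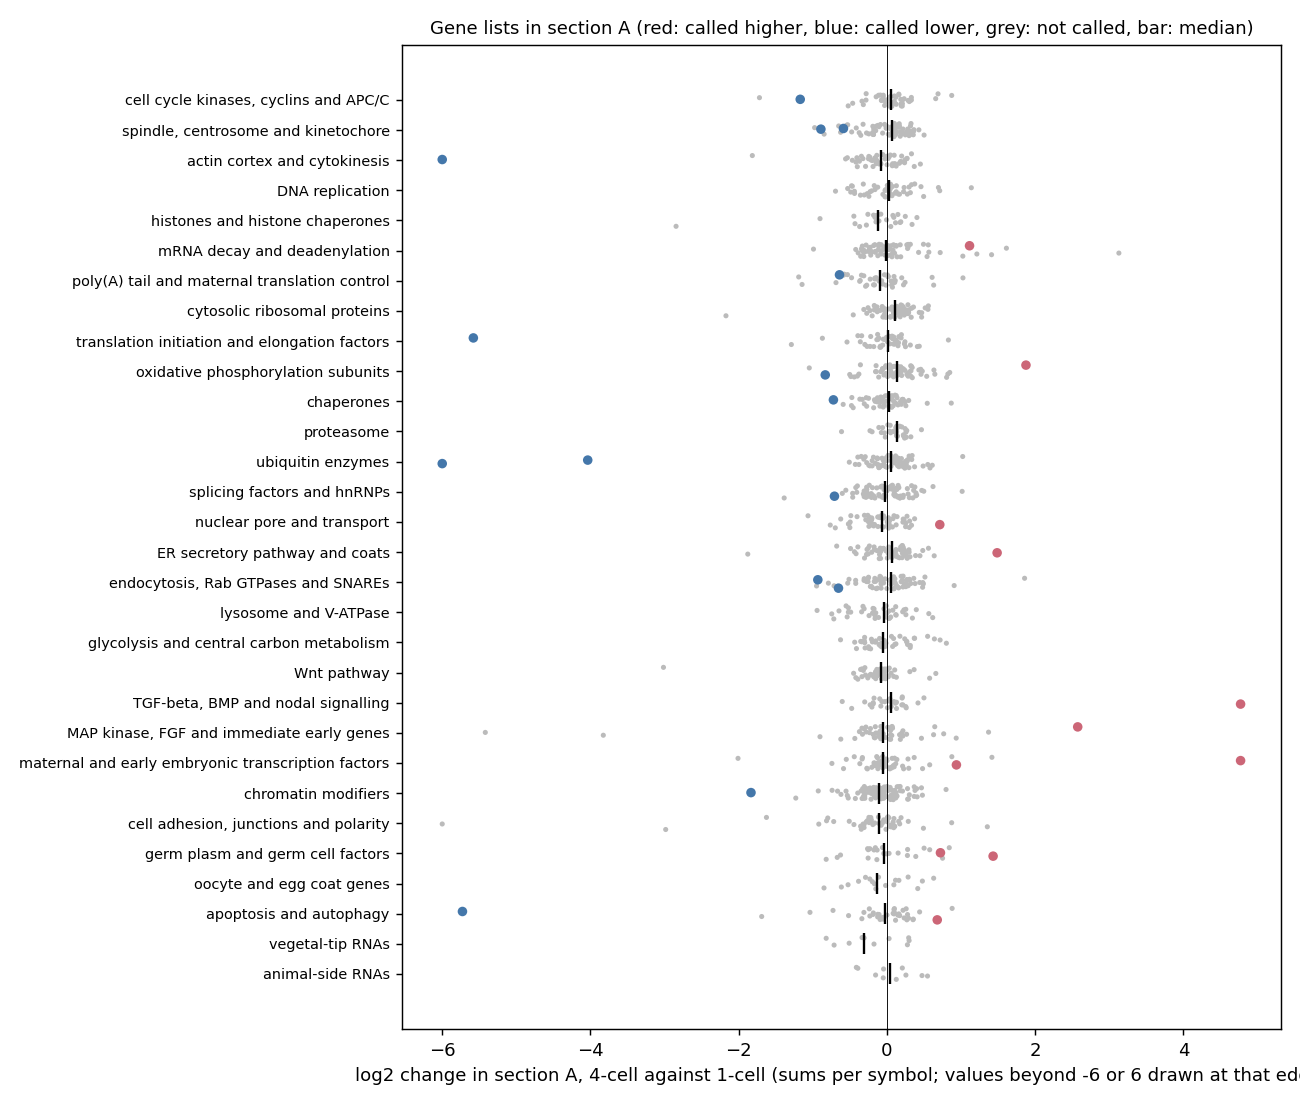
Each point is a gene of a list (rows), at its log2 change in section A between the 1-cell and 4-cell stage from counts summed per symbol (horizontal axis), and black bars are list medians. Red and blue genes were called higher and lower, and the bars lie close to 0 in all lists but the vegetal-tip RNAs, whose median was -0.308 with 0 of 11 called.

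Ribosomal protein RNAs together held 0.310%, 0.331% and 0.328% of the counts of the 1-cell libraries and 0.319%, 0.238% and 0.436% of the 4-cell libraries. The mean difference was 0.00767 percentage points, and the exact permutation test gave a two-sided p of 0.9, where 3 against 3 libraries cannot go below 0.1. Oxidative phosphorylation RNAs held 0.272% to 0.283% and 0.238% to 0.341%, also with an exact permutation p of 0.9. In both lists 4-cell replicate 2 was the lowest and 4-cell replicate 3 the highest of the 6 libraries, and the difference of the means changed sign without 4-cell replicate 3. The 10 most abundant transcripts held 3.50% to 5.75% of the 1-cell and 4.84% to 9.04% of the 4-cell libraries.

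The study followed several germ plasm and vegetal RNAs. One of its germ cell transcripts, AMEXTC_0340000004005, carries no human symbol and was called higher in the animal segment. It stood at 0 in all 3 1-cell libraries and at 34.9, 46.4 and 34.3 in the 4-cell libraries, at least 43.1-fold higher (edgeR adjusted p = 5.14e-04). The study described the rise of this transcript as mainly vegetal, so the gain is not one of the animal segment alone. GRIP2, NANOS1, DND1 and RBPMS2 were not called. GRIP2, a germ plasm RNA of the vegetal pole, stood at 50.7, 27.0 and 39.5 and then at 36.9, 41.6 and 41.3. NANOS1, which blocks translation in germ cells, stood at 61.8, 46.1 and 41.4 and then at 60.4, 84.6 and 36.9. DND1, which protects germ cell RNAs, stood at 58.5, 41.6 and 46.4 and then at 21.5, 32.5 and 29.0, with no overlap and an edgeR adjusted p of 0.169. RBPMS2, an RNA binding protein of germ granules, and PLIN2, a lipid droplet protein, had means 1.31-fold and 1.33-fold higher, and PLIN2 was not called. PRMT1, AKT2, ANKHD1, RPL12 and SH3BP4 were not called either, with log2 changes between -0.50 and 0.26, while SYS1, a Golgi trafficking protein, fell 5.86-fold from 208, 260 and 254 to 44.0, 22.1 and 57.2. The standard errors of GRIP2, NANOS1 and DND1 were 0.31 to 0.32 on the log2 scale. The values by symbol are sums in section A, while the study described single transcripts over all sections. It placed PRMT1 among RNAs that rose at the 4-cell stage, and SH3BP4 and PLIN2 among degraded ones. An uncalled sum in section A does not bear on those statements.

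The next question was whether the changes were particular to the animal segment. The other 4 segments of the same embryos are not independent samples, and they were used as a comparison of regions. Of the 103 genes called higher in section A, the fitted change was also upward in 101 in all of sections B to E, and of the 112 called lower it was downward in 111. The median change of the higher genes was 1.40 in section A and 1.14 to 1.36 in sections B to E on the log2 scale. The median change of the lower genes was -2.54 in section A and -2.20 to -2.53 in the other sections. The difference between the change in A and the mean change in B to E could be estimated for 189 of the 215 called genes, with a median size of 0.21 and a median SE of 0.24.

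Over all 28909 transcripts, the test of that difference called 1 transcript above and 0 below (0.00346%), with 873 at an unadjusted p under 0.05. By DESeq2 the same contrast called 27 above and 14 below. In simulated counts, changes were placed in section A only and in transcripts well above the level threshold. The edgeR test recovered 20% of log2 changes of 1 and 77% of those of 2. Smaller differences between the sections could therefore go uncalled. For 651 of the 21791 transcripts with sufficient level, 195 of them called in section A, the difference could not be fitted because whole embryos had no counts, and in the fit without a term for the embryo 1 transcript above and 0 below were called. The called transcript was of PIAS2, an E3 ligase for the modifier SUMO. It stood in section A at 66.6, 66.6 and 78.2 in the 1-cell libraries and at 64.8, 63.9 and 56.3 in the 4-cell libraries, a small step that was not called (log2 change -0.19, SE 0.20, edgeR adjusted p = 0.711). In section E, on size factors over the 29 libraries of both stages, PIAS2 stood at 68.0, 64.1 and 39.1 in the 1-cell libraries and at 0 in all 3 4-cell libraries. The fitted change in A exceeded the mean change in B to E by 2.49 on the log2 scale (edgeR adjusted p = 0.0075). Most of this difference lay in section E, and since the 4-cell libraries of E were at 0 its size depends on the fitted value there and is no bound. The fitted changes in A and B were close, at -0.18 and -0.16. The call was lost when any 1 of the 6 embryos was left out, with adjusted p-values of 0.0118 to 0.164 by the same test.

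**Figure D5:**
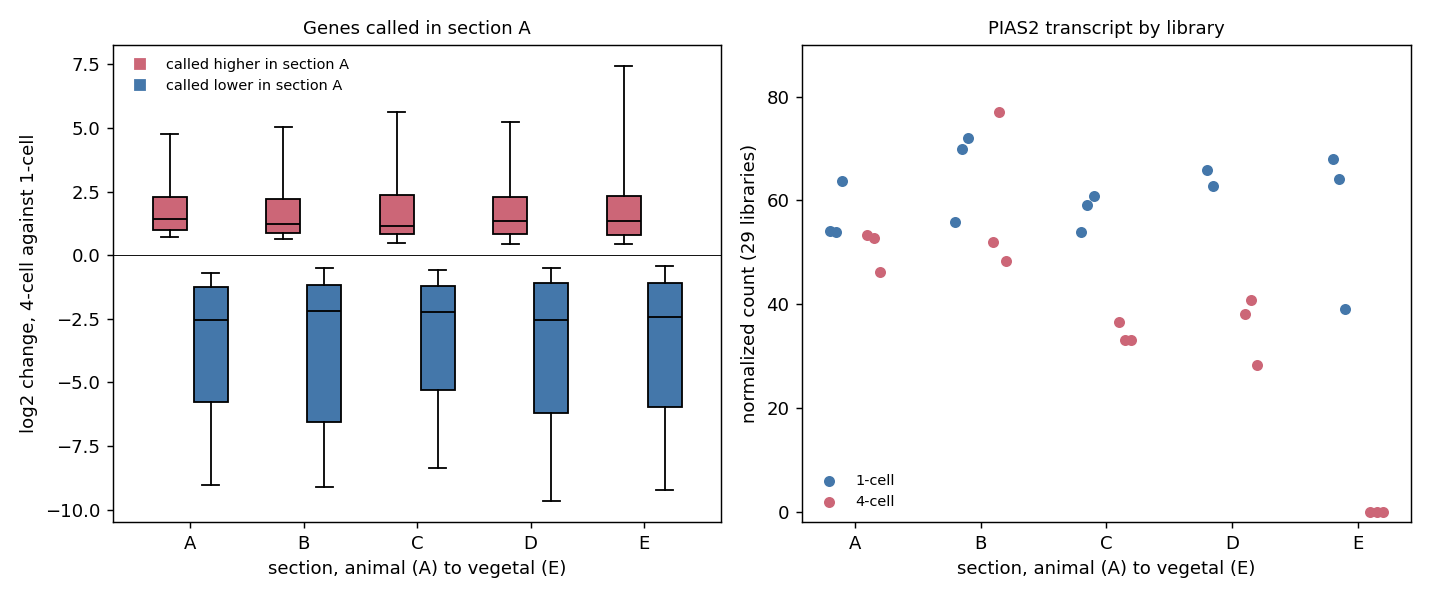
The left panel shows the log2 change between the stages (vertical axis) in sections A to E for the 103 genes called higher (red) and the 112 called lower (blue) in section A, as boxes of the quartiles with the median as a line and whiskers to the 5th and 95th percentiles. The right panel shows normalized counts of the PIAS2 transcript per library (vertical axis) by section, with 1-cell libraries in blue and 4-cell libraries in red. The boxes are alike in all sections, and the PIAS2 points of the 4-cell stage are at 0 in section E only.

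Set against section E alone, the change in section A was higher for 63 transcripts and lower for 4 by edgeR at an adjusted p under 0.01. In 59 of the 67 the fitted change in section A was within 2-fold and 63 fell in section E by the point estimate, while 5 were called in section A itself. RBPMS2 was one of the 67 but was not called in section A. On size factors over the 29 libraries, its transcript stood in section A at 224, 212 and 246 and then at 341, 220 and 367, and in section E at 2496, 2135 and 2417 and then at 654, 653 and 761. The NANP transcript, of a phosphatase in sialic acid synthesis, stood in section A at 43.2, 24.2 and 50.4 and then at 50.8, 51.8 and 47.0, and in section E at 981, 662 and 889 and then at 101, 111 and 111. For RBPMS2 and NANP the levels of the stages overlapped in section A and were far apart in section E. The transcript of HMMR, a spindle protein, was higher in every 4-cell library of section A, at 184, 174 and 299.5 against 112, 72.6 and 66.4, and lower in every 4-cell library of section E.

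The changes of section A were still present at the later stages. Among the genes called higher, the mean at the 64-cell stage was nearer to the 4-cell than to the 1-cell mean in 103 of 103, and at the 1K-cell stage in 102. Among the genes called lower, these numbers were 112 and 104 of 112. Nearness was measured on log2 of the mean with 1 added. The 1-cell stage therefore stood apart from the 3 later stages in most of these genes. The 64- and 1K-cell libraries were part of the fit that made the calls, so these numbers are a description and no independent check. DUSP1 kept means of 207 and 210 at the 64- and 1K-cell stages, DDX4 of 387 and 380.0, and FOXH1 of 117 and 89.3. HSPA8 was among the genes that did not stay low, with means of 782, 474 and 694 for the 1-, 4- and 1K-cell stages.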

How the data were processed

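RNA was sequenced from 5 segments of single embryos at 4 stages, and the 6 section A libraries of the 1- and 4-cell stages were compared. The authors trimmed the reads with Trimmomatic, removed ribosomal and mitochondrial reads and counted with kallisto 0.43.1 against an axolotl transcript assembly. The deposited values are estimated counts per transcript that the authors made with kallisto, given as whole numbers with 0 fractional values, filtered by the authors to transcripts that exceeded 30 counts in some library. Human symbols are the ones the authors assigned (16245 transcripts, 9194 symbols).

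The 12 section A libraries of all stages were fitted with edgeR 4.0.16 (limma 3.58.1, R 4.3.3) by the quasi-likelihood test, with a term for stage, median-of-ratios size factors and Benjamini-Hochberg adjustment over all transcripts or all symbols. Calls needed an adjusted p under 0.01 and a mean above 20 in 1 of the 2 stages. Section A was compared with sections B to E in 29 libraries with terms for embryo, section and stage by section. The same fits were tested on simulated data. DESeq2 1.42.0, TMM scaling, a filter on low counts, other sets of libraries and each library left out were the alternatives.

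Named transcripts were the 10 largest called rises and falls with a symbol, no overlap and a mean of at least 100 in the higher stage. Also named were up to 4 called genes per list with the smallest adjusted p, the calls of the section contrast, genes the study named, and 2 rises and 2 falls without a symbol. The genes outside the lists are said to be picked after their values were seen. PLK1, CDC25A, CPEB1, FOS and JUN follow none of these rules, and NANP and HMMR were taken from the comparison with section E alone. They too were picked with their values known. The members and lists were chosen with earlier results of these data known. Nothing in the sources shows that a p-value here covers differences between parents. The primer sequences are the ones the study designed. One called gene is not reported here.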

Additional observations from a re-analysis of the deposited data

Results flagged for a closer look

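The change of the PIAS2 transcript in section A differed from the mean change of sections B to E, mostly through section E. The difference between its log2 change in section A and the mean of sections B to E was 2.49 by edgeR's quasi-likelihood test of the difference itself (adjusted p = 0.0075). Per section, the fitted log2 changes were -0.18 in A, -0.16 in B, -0.76 in C, -0.84 in D and -8.94 in E. The value in E is against 3 libraries at 0 and is no bound, so the size of the difference depends on the fit, and the change in A was close to that in B. No group had more than 3 libraries, so single libraries were not tested for standing apart.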

How the results depend on the processing

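Beside 411 higher and 358 lower transcripts, DESeq2 gave 1012 and 1133, an adjusted p under 0.05 gave 834 and 920, and the 6 libraries alone gave 193 and 411. Beside 103 higher and 112 lower genes, DESeq2 gave 226 and 248, and an adjusted p under 0.05 gave 255 and 285. Leaving out 1 library each gave 272 to 324 and 117 to 200 transcripts, and 44 to 81 and 49 to 90 genes. For the difference between section A and sections B to E (1 above, 0 below), DESeq2 gave 27 and 14, an adjusted p under 0.05 gave 4 and 1, section E alone gave 63 and 4, and leaving out embryos gave 0 to 0 and 0 to 1. Counts summed per symbol, added after seeing the data, gave 1 and 0. The transcript with the highest mean in place of the sum gave 17 higher and 22 lower listed genes beside 10 and 15. The causes were not tested.

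No pairing by replicate number was seen, since the deviations of same-numbered libraries correlated at -0.038, 0.021 and -0.015. Whether same-numbered embryos shared parents was not tested. With the replicate number as a block, 248 transcripts were higher and 99 lower, and 56 genes were higher and 60 lower. The largest correlation of a library was not always with its own number.

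DESeq2 did not call the sums of ACTB, UBE2G2 and USP28 or the falling transcripts of PARP12 and IKZF4 (adjusted p of 0.0101, 0.0163, 0.107, 0.0832 and 0.0937). Among 1117 values of 99 named log2 changes under the alternatives, 6 changed sign, all in genes that were not called. When 1 library was left out, the log2 change ran from -0.208 to 0.0251 for ACO1, from -0.0908 to 0.0191 for AKT2, from -1.14 to 0.108 for ANKHD1, from -0.168 to 0.247 for GRIP2 and from -0.0288 to 0.547 for NANOS1. Library shares of ribosomal protein RNAs differed by -0.0447 to 0.0541 percentage points when 1 library was left out, those of oxidative phosphorylation by -0.0192 to 0.0321, vegetal-tip RNAs by -0.00863 to -0.00468 and animal-side RNAs by -0.00159 to 0.0164.

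Low counts limit the genes near a level of 20, and a fold against libraries at 0 is only a lower bound.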
